A study of Homo sapiens with 9 samples.

Results

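The 50 genes described here are markers of mature or maturing myeloid cells: monocytes and macrophages, neutrophil granulocytes, and mast cells with basophils and eosinophils. They were taken from a fixed list of names, chosen with earlier results of these data known. All 50 were matched by symbol to 1 gene each among the 60605 genes counted. RNA sequencing of total RNA covered 9 libraries of KG-1a, a human acute myeloid leukaemia line of immature, CD34-positive cells. The groups, with 3 libraries each, were knockout clone 1 and knockout clone 2, in which PRMT2 had been edited with CRISPR/Cas9, and wild-type cells (WT). All were grown in the same medium with serum and without a drug. Each knockout group is 1 clone, so the spread between clones rests on 2 of them, and the labels do not say whether WT was cloned or whether replicates came from separate cultures. The p-values therefore cover the spread between these libraries, which may be technical.

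In normal marrow, neutrophil granule proteins such as myeloperoxidase and elastase are made for a short time at the promyelocyte stage, and lactoferrin and cathelicidin somewhat later. Monocytes carry CD14, the S100A8 and S100A9 proteins and Fc receptors, which bind the tail of antibodies. Mast cells and basophils store histamine, carboxypeptidase A3 and tryptases, and carry the high-affinity IgE receptor, a complex of an alpha chain (FCER1A), a beta chain (MS4A2) and a gamma chain (FCER1G). The question of the design is what changes when PRMT2, a protein arginine methyltransferase, is disrupted.

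Most of the 50 markers were absent or nearly absent from KG-1a cells of either genotype. Levels are given in CPM, the gene's count set against the library total after scaling. By the rule used, 13 of 50 were expressed, with at least 1 CPM in all 3 libraries of at least 1 group. FCER1G met this only in the clones and MS4A2 only in clone 2. Another 27 were present as traces, and 10 were not detected, with at most 3 counts in every library. The traces include CD68, whose level could not be measured because another gene shares 1765 of its 2163 exon bases. S100A12, CAMP, DEFA4 and FCER1A had 0 counts in all 9 libraries, which allows up to 0.00921 CPM over the libraries together (3 counts, counting error only). FCGR1A, ELANE, LTF, LCN2, CEACAM6 and CXCR1 completed those not detected. At a minimum of 5 CPM, 6 of 50 remained, namely LST1, SRGN, FUT4, AIF1, CPA3 and CST7.

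**Figure D1:**
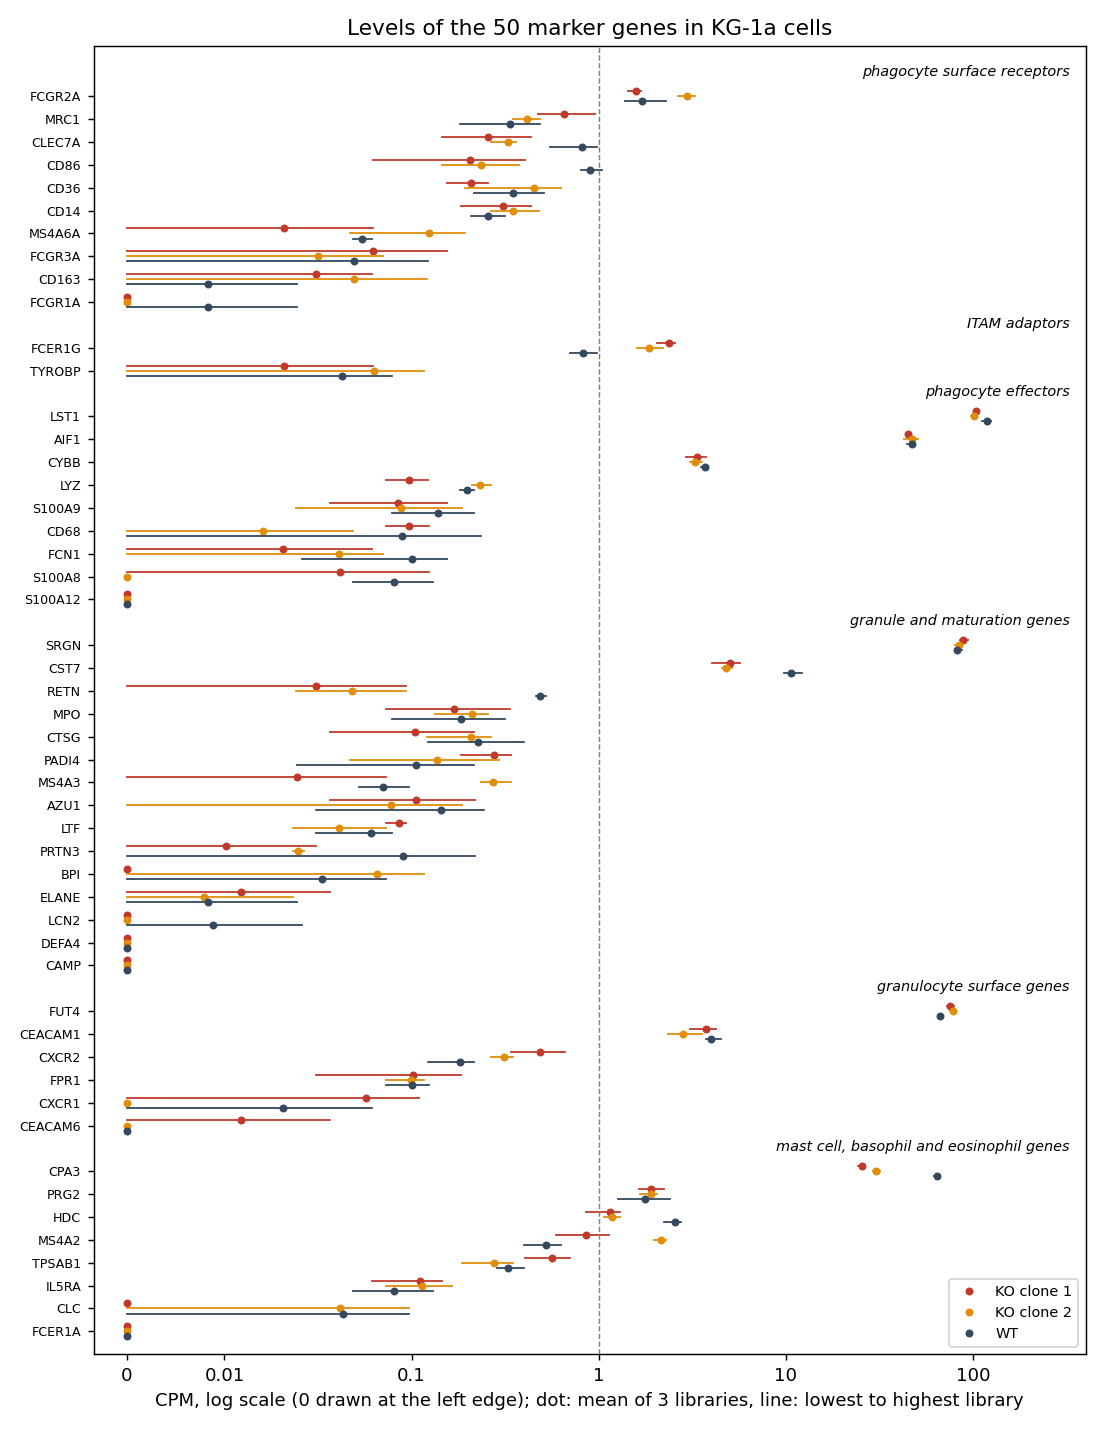
Mean CPM of each of the 50 markers in KO clone 1, KO clone 2 and WT on a log axis, with a line across the lowest and highest of 3 libraries, grouped by role. In all, 13 genes reach the dashed line at 1 CPM in a whole group, and S100A12, CAMP, DEFA4 and FCER1A lie at 0 in all 3 groups.

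CD34, the antigen of blood stem and progenitor cells, averaged 735 ± 21.3 CPM in clone 1, 764 ± 23.2 in clone 2 and 625 ± 14.1 in WT (SD, n = 3 libraries each, as for all such values), and the leukocyte antigen PTPRC averaged 542 CPM in clone 1, 520 in clone 2 and 590 in WT. SPN, also listed for the line, averaged 895, 876 and 913 CPM in the same groups, and PROM1 only 1.71, 1.65 and 1.71. Of 5 erythroid markers, 0 were expressed, and 2 of 4 B cell markers and 6 of 8 T and NK cell markers were. Of 3 megakaryocyte markers 1 was. This was ITGA2B, at 646 ± 13.0 CPM in clone 1, 697 ± 11.3 in clone 2 and 434 ± 16.1 in WT. PRMT2 itself was at 21.2, 20.2 and 20.7 CPM in clone 1, at 21.4, 21.1 and 21.2 CPM in clone 2, and at 39.4, 39.0 and 39.8 CPM in WT, so RNA was lower but still present in both clones. Depth was 28006342 to 43149410 counted read pairs per library, and 3 counts came to 0.0701 to 0.11 CPM. KO clone 1 replicate 1 stood apart. Pairs with several mapping positions made up 13.3% of it, against 3.86% to 4.51% of the other libraries, and mitochondrial rRNA took 2.66% of its counts, against 0.00298% to 0.00926%.

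A gene was called where its adjusted p fell below 0.05 and its log2 fold change was 1 or more in size, in an edgeR fit over 20655 genes. The filter on low counts passed 22 of the 50 markers, and 28 were not tested. Averaged over the clones and set against WT, 9 markers were called, 3 higher and 6 lower. Over all genes tested 6.53% were called, 2% higher and 4.53% lower. In clone 1, 2 were called higher and 6 lower, where 7.58% of all genes were called, 2.6% higher and 4.98% lower. In clone 2 there were also 2 higher and 6 lower, where 5.96% of all genes were called, 1.83% higher and 4.13% lower. With no fold minimum, 11 markers passed the adjusted p in the mean (35.2% of all genes), 10 in clone 1 (36.2%) and 12 in clone 2 (30.5%). The libraries of 10 tested markers did not overlap between both clones and WT (24.9% of all genes), nor those of 11 between clone 1 and WT (44.5%) or of 13 between clone 2 and WT (40.5%). In both clones 1 marker was called higher and 6 lower, against 4.34% of all genes called in both in the same direction. No marker passed the adjusted p in opposite directions, as 1.35% of all genes did. The median log2 fold change of the 22 tested markers was 0.02 in the mean of both clones, beside 0.00 for all genes. Both clones are compared with the same WT libraries. For a marker that passed the filter only through the group where it was high, the filter favoured a difference. RETN and CD86 passed only through WT, and CXCR2 and PADI4 only through libraries of the clones. The count is therefore a description of those tested. Without KO clone 1 replicate 1, 8 of the 9 calls in the mean were shared, and CXCR2 was the one lost. In bulk RNA, fewer cells of a type and less RNA per cell cannot be told apart.

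**Figure D2:**
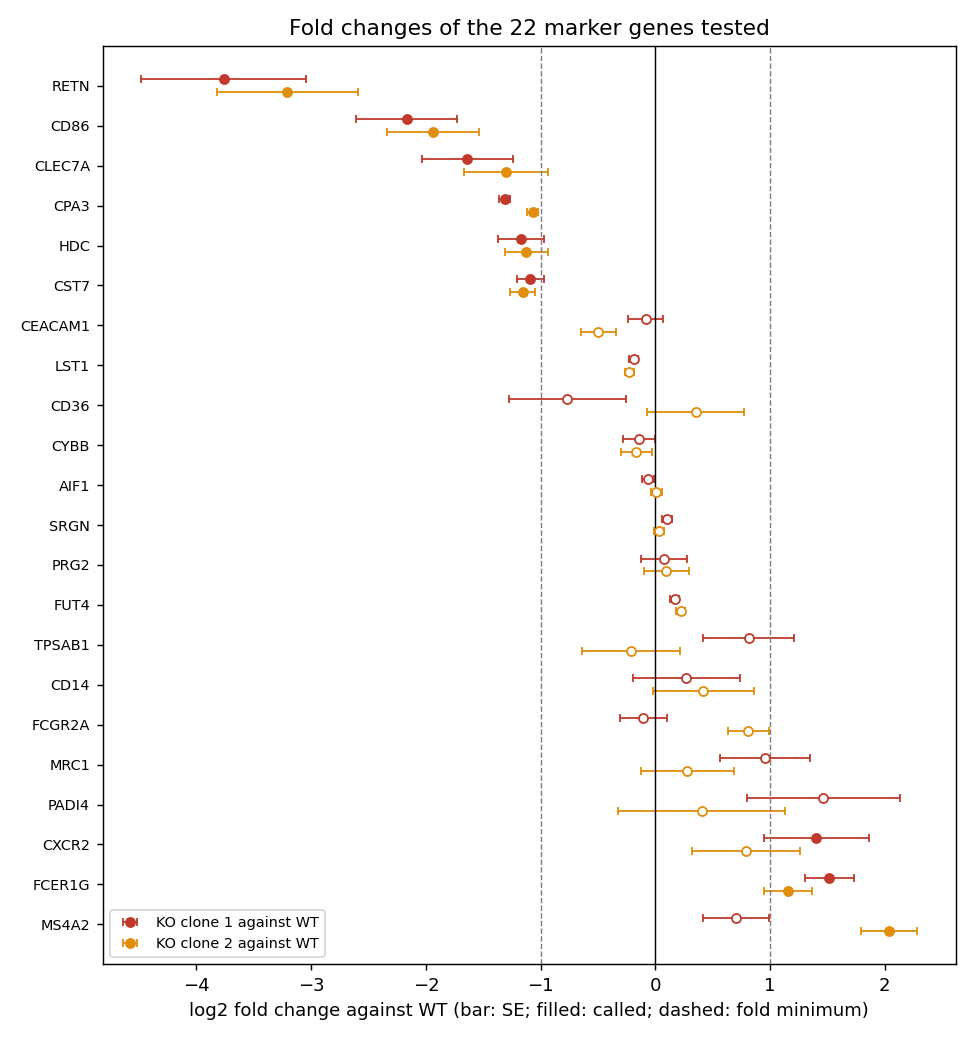
Log2 fold change of the 22 markers tested in KO clone 1 and KO clone 2, each against WT, with the SE as bars; filled points were called and dashed lines mark the fold minimum. RETN, CD86, CLEC7A, CPA3, HDC and CST7 lie below -1 in both clones, FCER1G lies above 1 in both, and MS4A2 does so in clone 2 only.

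The promoters of 4 mast cell and Fc receptor genes are shown because 2 of them, CPA3 and HDC, fell in both clones, whereas FCER1G rose in both and MS4A2 in clone 2. Each is the stretch of 250 bases before the RefSeq start on GRCh38.p14, written 5′ to 3′ on the strand of the gene, and capitals mark the GATA motif, GATAA or TTATC on the printed strand. The printed stretches are, in the order of the lines, chr3:148865046-148865295 on the plus strand, chr15:50265727-50265976 on the minus strand, chr1:161215045-161215294 on the plus strand and chr11:60088414-60088663 on the plus strand.
CPA3: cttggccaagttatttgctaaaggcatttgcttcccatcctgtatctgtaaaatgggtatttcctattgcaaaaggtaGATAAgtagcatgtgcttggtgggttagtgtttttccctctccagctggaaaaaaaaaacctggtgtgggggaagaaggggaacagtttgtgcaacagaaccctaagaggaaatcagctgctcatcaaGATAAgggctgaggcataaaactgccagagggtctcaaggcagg
HDC: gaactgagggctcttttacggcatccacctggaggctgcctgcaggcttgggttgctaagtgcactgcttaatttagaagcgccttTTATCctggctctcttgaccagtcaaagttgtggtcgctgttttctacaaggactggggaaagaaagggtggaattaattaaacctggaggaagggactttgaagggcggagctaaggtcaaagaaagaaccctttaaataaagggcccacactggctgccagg
FCER1G: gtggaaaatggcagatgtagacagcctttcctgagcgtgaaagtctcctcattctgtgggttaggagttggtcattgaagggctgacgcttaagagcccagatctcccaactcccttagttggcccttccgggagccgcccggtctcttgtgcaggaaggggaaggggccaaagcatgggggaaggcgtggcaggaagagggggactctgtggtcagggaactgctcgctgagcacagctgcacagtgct
MS4A2: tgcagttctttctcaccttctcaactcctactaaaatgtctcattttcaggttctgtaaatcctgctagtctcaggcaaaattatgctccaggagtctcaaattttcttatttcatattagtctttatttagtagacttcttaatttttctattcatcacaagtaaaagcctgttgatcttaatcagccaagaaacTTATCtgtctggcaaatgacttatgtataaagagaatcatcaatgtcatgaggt
The GATA motif was found 2 times before CPA3, with its first base 172 and 44 bases before the start, and 1 time each before HDC (164 bases) and MS4A2 (54 bases). It was not found in the FCER1G window. Among 35116 RefSeq promoters, 20.4% held it within the same length. The E-box, CANNTG, was found 4 times before CPA3, 1 time before HDC, 2 times before FCER1G and 1 time before MS4A2, and 61.8% of promoters held at least 1. The E-box reads the same on both strands, and no match overlapped a GATA motif. For HDC, FCER1G and MS4A2 the RefSeq start lies inside the gene bounds of GENCODE given below. Such matches describe the letters in the window and are not evidence of binding. The RefSeq table held 39 of the 50 markers.

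Mast cell, basophil and eosinophil markers moved in both directions. CPA3, a stored granule enzyme, and HDC, which makes histamine, were lower in both clones, and MS4A2, a chain of the IgE receptor, was higher in clone 2. CPA3 (ENSG00000163751, GRCh38 chromosome 3, 148865296 to 148897203) encodes the carboxypeptidase of mast cell granules. It was at 26.5, 24.3 and 26.3 CPM in clone 1, at 31.9, 29.2 and 30.4 CPM in clone 2, and at 64.8, 61.7 and 65.3 CPM in WT. No library of either clone reached the WT range, and the 3 groups did not overlap. Clone 1 held 40.2% and clone 2 held 47.7% of the level in WT. CPA3 had log2 fold changes of -1.31 in clone 1 (SE 0.0501, adjusted p = 2.11e-24 with edgeR) and -1.07 in clone 2 (SE 0.0479, adjusted p = 7.73e-22 with edgeR). Clone 2 was higher than clone 1 by 0.25 (SE 0.0522, adjusted p = 0.000263 with edgeR), short of the fold minimum.

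HDC (ENSG00000140287, chromosome 15, 50241947 to 50265965), the enzyme that makes histamine, had far fewer reads. It was at 1.28, 1.30 and 0.858 CPM in clone 1, at 1.07, 1.31 and 1.17 CPM in clone 2, and at 2.76, 2.68 and 2.25 CPM in WT. All 6 knockout libraries lay below the WT libraries. Its log2 fold changes were -1.17 in clone 1 (SE 0.2, adjusted p = 6.5e-06 with edgeR) and -1.13 in clone 2 (SE 0.189, adjusted p = 6.29e-06 with edgeR). Without KO clone 1 replicate 3 the value for clone 1 was -0.99 and short of the fold minimum. Read pairs on the strand opposite to HDC were as many as on its own strand, 537 each over the 9 libraries. Those opposite-strand pairs averaged 0.954 ± 0.18 CPM in clone 1, 1.11 ± 0.325 in clone 2 and 2.79 ± 0.0464 in WT, so they were lower in the clones as well. No annotated gene overlaps the exons of HDC on that strand in GENCODE 44, and the part of such pairs in the HDC counts was not tested.

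MS4A2 (ENSG00000149534, chromosome 11, 60088261 to 60098467), the beta chain of the IgE receptor, was at 0.841, 0.589 and 1.13 CPM in clone 1, at 2.30, 1.97 and 2.22 CPM in clone 2, and at 0.626, 0.536 and 0.400 CPM in WT. Clone 2 lay above all other libraries, and clone 1 overlapped WT. MS4A2 rose by 2.04 on the log2 scale in clone 2 (SE 0.242, adjusted p = 4.86e-09 with edgeR), with a log2 fold change of 0.70 in clone 1 (SE 0.288, adjusted p = 0.0535 with edgeR). The clones differed by 1.34 (SE 0.231, adjusted p = 1.57e-05 with edgeR), and it was the only marker called between them, where 2.82% of all genes were called and 1.58% were higher in clone 2. MS4A2 lies in a cluster of related genes with 2 other markers. MS4A3, 17.1 kb before it, had 2 counts in clone 1, 33 in clone 2 and 8 in WT. MS4A6A, 73.5 kb after it, had 2, 15 and 6. The ratio of clone 2 to clone 1, with a 95% counting interval, was 12.5 (3.20 to 108) for MS4A3 and 5.69 (1.32 to 51.3) for MS4A6A. Neither passed the filter. Without the filter, edgeR gave MS4A3 an adjusted p of 0.00244 and MS4A6A one of 0.203 between the clones.

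RNA of 2 of the 3 chains of the IgE receptor was thus detected, and only clone 2 expressed these 2 together by the rule used. FCER1A, the chain that binds IgE, had 0 counts. FCER1G (ENSG00000158869, chromosome 1, 161215234 to 161220699), the gamma chain shared by several Fc receptors, was at 2.56, 2.05 and 2.54 CPM in clone 1, at 1.60, 1.73 and 2.22 CPM in clone 2, and at 0.704, 0.974 and 0.801 CPM in WT. Every knockout library was above every WT library. It rose by 1.52 on the log2 scale in clone 1 (SE 0.212, adjusted p = 1.36e-07 with edgeR) and by 1.16 in clone 2 (SE 0.212, adjusted p = 2.58e-05 with edgeR). The difference between the clones was -0.36 (SE 0.185, adjusted p = 0.164 with edgeR). FCER1G was the only marker called higher in both clones, and it counted as expressed through the clones, since WT stayed below 1 CPM.

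Of the remaining markers of these cells, PRG2 and TPSAB1 were tested and not called, and IL5RA and CLC were not tested. PRG2, the major basic protein of eosinophils, was at 2.23, 1.64 and 1.84 CPM in clone 1, at 2.03, 1.65 and 2.06 CPM in clone 2, and at 1.64, 2.41 and 1.26 CPM in WT. The groups overlapped (0.08 in clone 1 and 0.10 in clone 2 on the log2 scale, adjusted p = 0.821 and 0.775 with edgeR). Another gene on the same strand, ENSG00000254979, overlaps 791 of the 1845 exon bases of PRG2 and drew 918 counts against its 611, so reads of the shared part could not be assigned to PRG2. The tryptase TPSAB1 averaged 0.566 CPM in clone 1, 0.276 in clone 2 and 0.326 in WT, and near-identical tryptase genes make its counts uncertain. Without KO clone 1 replicate 1 it was called between the clones (-1.21, adjusted p = 0.0381 with edgeR). IL5RA and CLC averaged at most 0.114 CPM in a group.

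Of 18 further mast cell, basophil and eosinophil genes, 5 were expressed and 8 tested. In the mean of both clones 1 was called higher and 1 lower, where 2% of all genes were higher and 4.53% lower. The tryptase TPSD1 averaged 0.616 ± 0.199 CPM in clone 1, 0.572 ± 0.133 in clone 2 and 0.223 ± 0.0186 in WT, and rose by 1.40 (adjusted p = 0.00169 with edgeR). These were traces, on 57, 69 and 25 counts, and TPSD1 passed the filter on low counts only through the clones. The uncertainty given for TPSAB1 holds for TPSD1 too. Neither TPSB2 (0.70, adjusted p = 0.295 with edgeR) nor TPSAB1 (0.30, adjusted p = 0.574 with edgeR) was called in the mean. IL1RL1, the receptor for interleukin-33, averaged 0.856 ± 0.16 CPM in clone 1, 2.60 ± 0.394 in clone 2 and 3.88 ± 0.195 in WT, and fell by 1.38 in the mean (adjusted p = 8.95e-11 with edgeR). It was called in clone 1 (-2.19) and short of the fold minimum in clone 2 (-0.58), and the clones differed by 1.61 (adjusted p = 1.85e-08 with edgeR). KIT, the stem cell factor receptor that mast cells keep, was called only in clone 2 against WT and between the clones. It averaged 6.95 ± 0.95 CPM in clone 1, 20.0 ± 1.12 in clone 2 and 6.15 ± 1.45 in WT, a log2 fold change of 0.18 in clone 1 (adjusted p = 0.306 with edgeR), 1.71 in clone 2 (adjusted p = 1.18e-11 with edgeR) and 1.53 between the clones. ENPP3, a basophil surface enzyme, was called only in clone 1, by 1.22 (adjusted p = 0.00165 with edgeR). The transcription factor GATA2 averaged 221 ± 6.39 CPM in clone 1, 236 ± 3.93 in clone 2 and 201 ± 10.9 in WT, 0.19 higher in the mean and far short of the fold minimum.

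**Figure D3:**
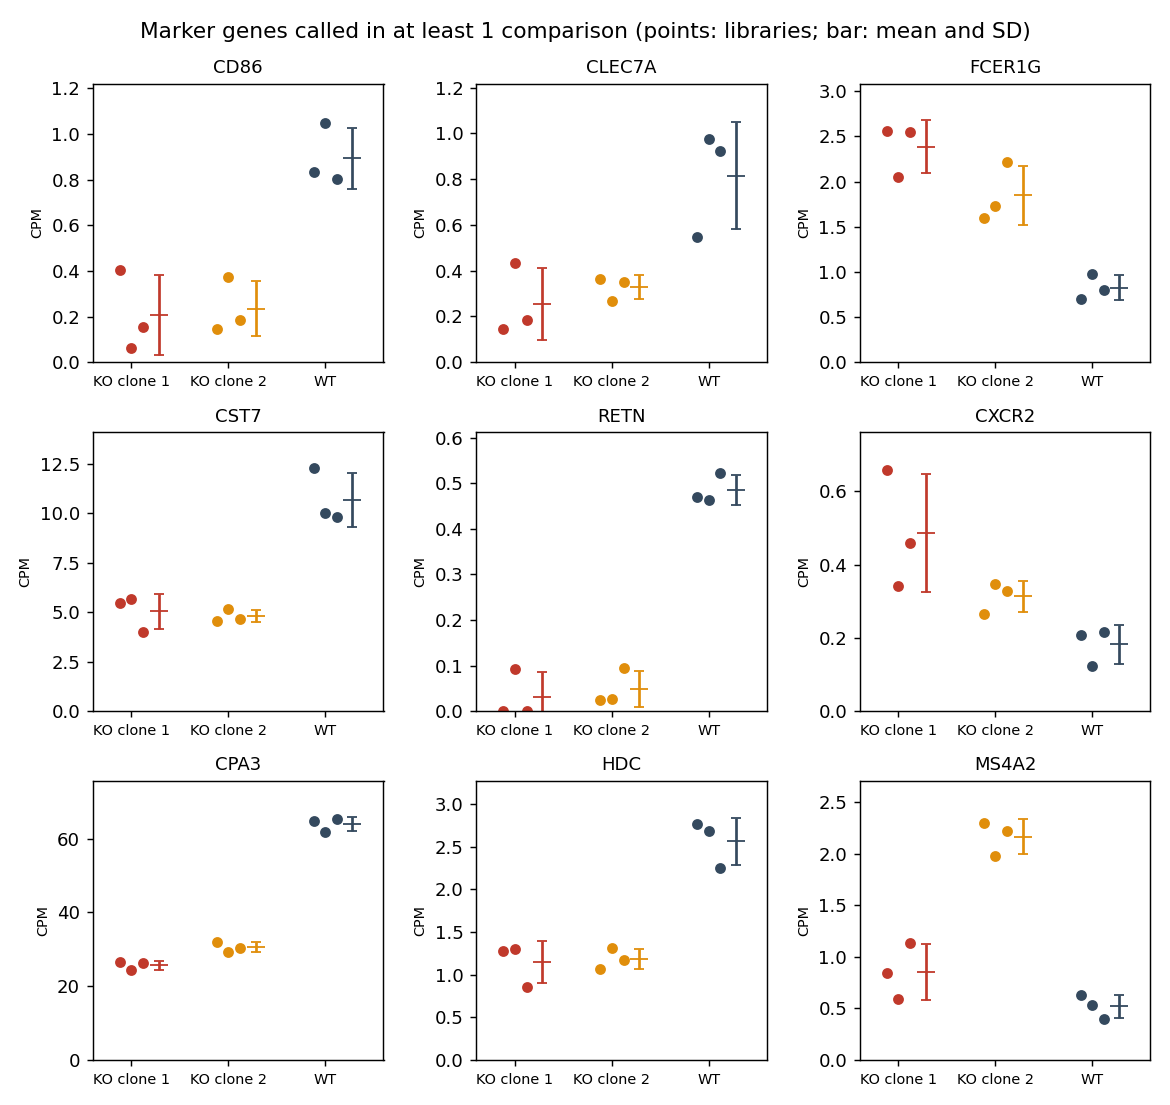
CPM of the 9 markers called in at least 1 comparison, with each library as a point and the mean and SD beside it, for KO clone 1, KO clone 2 and WT; every axis starts at 0. CPA3, HDC, CST7, RETN, CD86 and CLEC7A are lower in all 6 knockout libraries than in WT, FCER1G and CXCR2 are higher in all 6, and MS4A2 stands out in clone 2.

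Among phagocyte surface receptors, 1 of 10 was expressed. FCGR2A, a low-affinity receptor for IgG, was at 1.65, 1.67 and 1.44 CPM in clone 1, at 3.27, 2.64 and 3.04 CPM in clone 2, and at 2.29, 1.41 and 1.39 CPM in WT. Clone 2 lay above the other libraries and clone 1 overlapped WT. Its difference from WT was 0.81 on the log2 scale in clone 2 (SE 0.178, adjusted p = 0.000345 with edgeR), short of the fold minimum, and -0.10 in clone 1 (SE 0.202, adjusted p = 0.743 with edgeR). Without WT replicate 1, the highest of the WT libraries, the value for clone 2 was 1.09 and was called.

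CD86 and CLEC7A were at trace levels and lower in both clones. CD86 (ENSG00000114013, chromosome 3, 122055362 to 122121139), a ligand that costimulates T cells, was at 0.402, 0.0620 and 0.153 CPM in clone 1, at 0.145, 0.373 and 0.187 CPM in clone 2, and at 0.834, 1.05 and 0.801 CPM in WT. These were 18 counts in clone 1, 28 in clone 2 and 101 in WT, and no knockout library reached the WT range. CD86 had log2 fold changes of -2.17 in clone 1 (SE 0.44, adjusted p = 9.64e-05 with edgeR) and -1.94 in clone 2 (SE 0.402, adjusted p = 0.000159 with edgeR). CD86 passed the filter on low counts only through WT, where it was high, so its calls are a description. A library held 26 to 43 counts in WT, 2 to 11 in clone 1 and 6 to 14 in clone 2. CLEC7A (ENSG00000172243, chromosome 12, 10116777 to 10130258), the beta-glucan receptor Dectin-1, was at 0.146, 0.434 and 0.184 CPM in clone 1, at 0.363, 0.267 and 0.350 CPM in clone 2, and at 0.547, 0.974 and 0.924 CPM in WT. All 6 knockout libraries lay below WT, and the clones overlapped with each other. CLEC7A had log2 fold changes of -1.64 in clone 1 (SE 0.4, adjusted p = 0.001 with edgeR) and -1.30 in clone 2 (SE 0.363, adjusted p = 0.00463 with edgeR).

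CD14, the lipopolysaccharide co-receptor that defines monocytes, averaged 0.308 CPM in clone 1, 0.350 in clone 2 and 0.257 in WT, with no call. The mannose receptor MRC1 averaged 0.653 CPM in clone 1, 0.412 in clone 2 and 0.336 in WT, a log2 fold change of 0.95 in clone 1 (adjusted p = 0.0544 with edgeR). It was called there when KO clone 1 replicate 1 (1.12), KO clone 1 replicate 3 (1.10) or WT replicate 2 (1.35) was left out. The scavenger receptor CD36 averaged 0.209 CPM in clone 1, 0.453 in clone 2 and 0.347 in WT and was called only between the clones, without KO clone 2 replicate 1 (1.48, adjusted p = 0.0207 with edgeR). FCGR3A, CD163 and MS4A6A had at most 15 counts in a group.

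Of 16 further phagocyte receptors and regulators, 9 were expressed, and in the mean of both clones 1 was called higher and 3 lower of 11 tested, where 2% of all genes were higher and 4.53% lower. CTSS, a lysosomal protease of antigen-presenting cells, averaged 4.15 ± 0.304 CPM in clone 1, 6.13 ± 0.575 in clone 2 and 1.41 ± 0.182 in WT, and rose by 1.83 (adjusted p = 4.46e-15 with edgeR). CSF3R, the receptor for granulocyte colony-stimulating factor, averaged 55.3 ± 1.33 CPM in clone 1, 62.5 ± 2.10 in clone 2 and 120 ± 2.73 in WT, and fell by 1.03 in the mean (adjusted p = 6.91e-28 with edgeR). It was called in clone 1 (-1.12) and short of the fold minimum in clone 2 (-0.94). VCAN, a proteoglycan of monocytes, averaged 2.23 ± 0.0817 CPM in clone 1, 11.2 ± 0.437 in clone 2 and 18.8 ± 0.342 in WT, and fell by 1.91 in the mean (adjusted p = 2.15e-24 with edgeR). VCAN was called in clone 1 (-3.07) and short of the fold minimum in clone 2 (-0.75), and the clones differed by 2.33 (adjusted p = 2.87e-21 with edgeR). CD93, a receptor of monocytes and stem cells, averaged 311 ± 3.45 CPM in clone 1, 269 ± 4.03 in clone 2 and 252 ± 3.08 in WT, 0.20 higher in the mean (adjusted p = 2.66e-07 with edgeR). CSF1R, the receptor of macrophage colony-stimulating factor, averaged 0.043 CPM in clone 1, 0.401 in clone 2 and 0.393 in WT, on 4, 48 and 43 counts. It was called lower in the mean (-1.51, adjusted p = 0.00991 with edgeR) and in clone 1 (-3.06), with 0.03 in clone 2. CSF1R passed the filter on low counts only through clone 2 and WT, where it was high, so its calls are a description. In addition, 89.7% of its stranded counts lay on the opposite strand. SPI1, which encodes the myeloid factor PU.1, was called only in clone 2 (1.22, adjusted p = 2.65e-06 with edgeR) and between the clones. It averaged 1.23 CPM in clone 1, 2.69 in clone 2 and 1.15 in WT.

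Of the ITAM adaptors, which carry the tyrosine motif that relays signals of Fc and related receptors, FCER1G is described above and TYROBP was a trace, with 2 counts in clone 1, 8 in clone 2 and 5 in WT. On the strand opposite to TYROBP there were 162 counts in all, 91.5% of its stranded counts. The kinases SYK and LYN, which act on this motif, were abundant. SYK averaged 328 ± 4.39 CPM in clone 1, 313 ± 4.43 in clone 2 and 353 ± 6.62 in WT, and LYN averaged 529 ± 16.5, 402 ± 5.68 and 356 ± 13.9 CPM in the same groups. Of 9 such partner genes 3 were expressed and tested, and none was called with edgeR. At the adjusted p alone 1 was higher (LYN) and 2 were lower (SYK and the adaptor HCST), where 35.2% of all genes passed. HCST averaged 28.3 ± 2.80 CPM in clone 1, 28.5 ± 1.17 in clone 2 and 42.7 ± 3.65 in WT.

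Among phagocyte effector genes 3 of 9 were expressed, and S100A12 was at 0. Per kilobase of exon, SRGN, LST1 and AIF1 stood highest of the 50, at the 98.4th, 97.1st and 95.9th percentile of protein-coding genes. LST1, a small transmembrane protein of leukocytes, was at 107, 102 and 103 CPM in clone 1, at 97.8, 103 and 103 CPM in clone 2, and at 125, 111 and 120 CPM in WT. All knockout libraries lay below WT, by little. LST1 had log2 fold changes of -0.19 in clone 1 (SE 0.0373, adjusted p = 6.52e-05 with edgeR) and -0.23 in clone 2 (SE 0.0369, adjusted p = 3.54e-06 with edgeR). AIF1, the macrophage protein IBA1, was at 44.1, 46.1 and 44.8 CPM in clone 1, at 43.0, 50.8 and 48.1 CPM in clone 2, and at 44.3, 48.6 and 48.2 CPM in WT. The groups overlapped (-0.06 and 0.01, adjusted p = 0.372 and 0.934 with edgeR, SE 0.051 and 0.0498 in clones 1 and 2).

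CYBB, the catalytic subunit of the phagocyte NADPH oxidase, was at 3.36, 3.75 and 2.91 CPM in clone 1, at 3.22, 3.09 and 3.55 CPM in clone 2, and at 3.78, 3.78 and 3.51 CPM in WT. Knockout and WT libraries overlapped (-0.14 and -0.17, adjusted p = 0.464 and 0.397 with edgeR in clones 1 and 2). Its partners CYBA and RAC2 were expressed. RAC2 averaged 236 ± 9.91 CPM in clone 1, 265 ± 5.00 in clone 2 and 321 ± 18.8 in WT, 0.36 lower in the mean (adjusted p = 2.41e-12 with edgeR), and CYBA averaged 59.9 ± 3.31, 75.8 ± 3.41 and 72.3 ± 4.35 CPM in the same groups. Neither was called with edgeR, and both were lower in the mean at the adjusted p (0.0399 for CYBA).

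Lysozyme (LYZ) had 9 counts in clone 1, 28 in clone 2 and 22 in WT. S100A8 had 4, 0 and 9 counts (called in clone 2 without the filter, adjusted p = 0.049 with edgeR), S100A9 had 8, 11 and 15, and the ficolin FCN1 had 2, 5 and 11 in the same groups. CD68, a macrophage lysosomal glycoprotein, had 21 counts in all, but 1765 of its 2163 exon bases are shared with an overlapping gene on the same strand, so its level could not be measured from these counts.

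**Figure D4:**
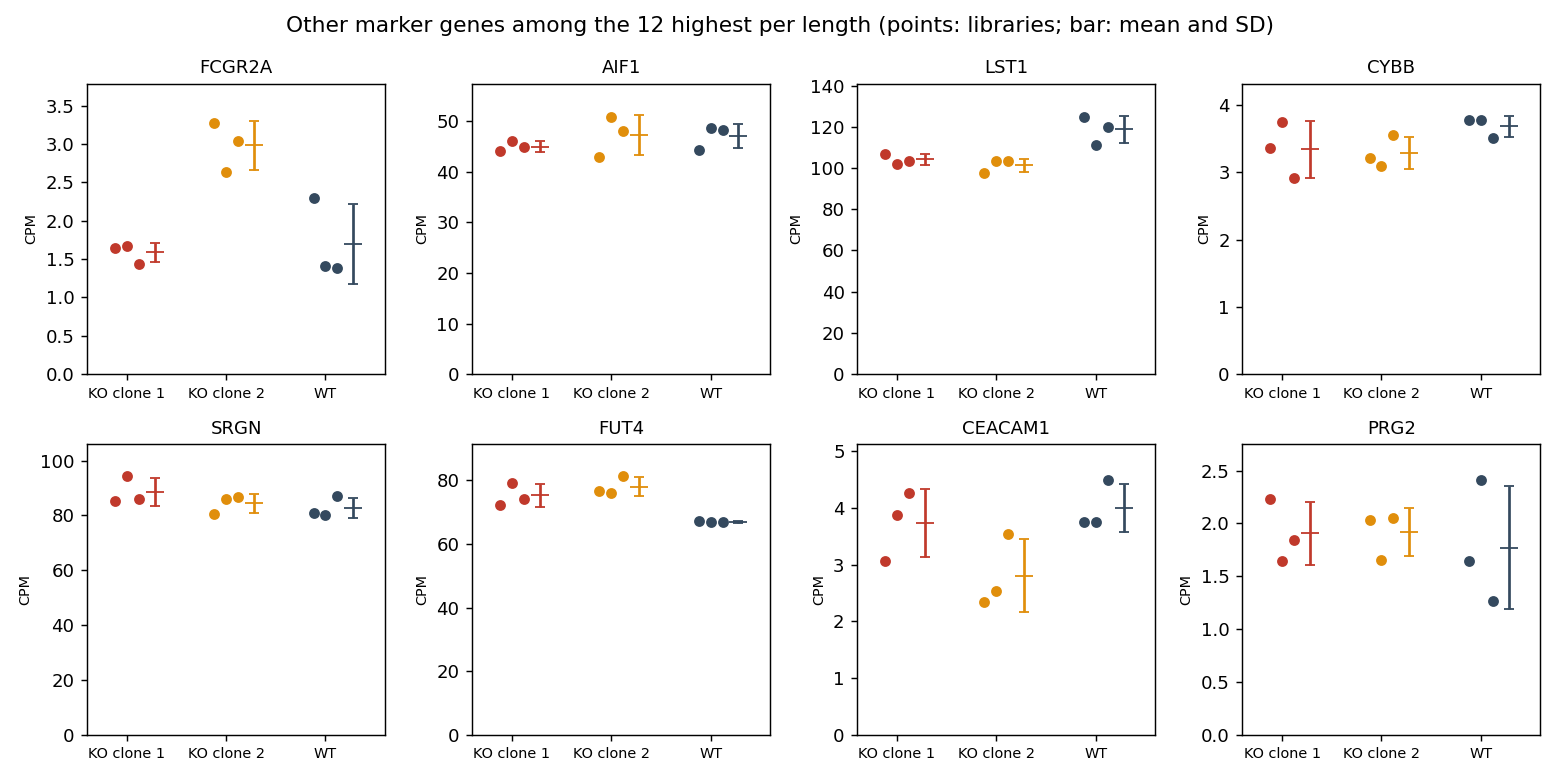
CPM of the 8 other markers among the 12 with the highest level per kilobase of exon, by library, with mean and SD, for KO clone 1, KO clone 2 and WT; every axis starts at 0. AIF1, CYBB, SRGN and PRG2 overlap between the groups, FUT4 is slightly higher and LST1 slightly lower in all knockout libraries, and FCGR2A is highest in clone 2.

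The neutrophil granule markers MPO, CTSG, AZU1, ELANE, PRTN3, BPI, LTF, LCN2, CAMP and DEFA4 had too few counts to be tested. MPO, the peroxidase of primary granules, had 16 counts in clone 1, 26 in clone 2 and 21 in WT, the serine protease CTSG had 10, 25 and 24, and AZU1 had 10, 9 and 17. ELANE had 1 count in each group, PRTN3 had 1, 3 and 11, and BPI had 0, 8 and 4. The proteins of later granules were at the limit or below it, with LTF at 8, 5 and 7 counts, LCN2 at 0, 0 and 1 and CAMP at 0. PADI4, the enzyme that citrullinates histones in neutrophils, averaged 0.277 CPM in clone 1, 0.138 in clone 2 and 0.106 in WT and was not called (adjusted p = 0.0826 and 0.74 with edgeR in clones 1 and 2). It was called in clone 1 without WT replicate 3 (2.40) and between the clones without KO clone 2 replicate 2 (-2.17). PADI4 passed the filter on low counts only through libraries of the clones, so these calls are a description.

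Granule constituents that other blood cells share were expressed. SRGN, the proteoglycan serglycin that packs granule proteases, was at 85.1, 94.5 and 86.1 CPM in clone 1, at 80.4, 86.1 and 86.8 CPM in clone 2, and at 80.8, 80.3 and 87.0 CPM in WT. The groups overlapped, with log2 fold changes of 0.10 in clone 1 and 0.03 in clone 2 (SE 0.0416 and 0.041, adjusted p = 0.0541 and 0.636 with edgeR).

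CST7 (ENSG00000077984, chromosome 20, 24949269 to 24959928), cystatin F, an inhibitor of lysosomal cysteine proteases in myeloid, T and NK cells, was at 5.45, 5.68 and 4.02 CPM in clone 1, at 4.58, 5.17 and 4.67 CPM in clone 2, and at 12.3, 10.01 and 9.82 CPM in WT. The libraries of both clones overlapped with each other and lay below WT. CST7 had log2 fold changes of -1.09 in clone 1 (SE 0.116, adjusted p = 2.47e-10 with edgeR) and -1.16 in clone 2 (SE 0.113, adjusted p = 2.93e-11 with edgeR). In clone 1 it was short of the fold minimum without KO clone 1 replicate 3 (-0.94) or without WT replicate 1 (-0.98). Several T and NK cell markers were lower too. Of 8 such markers 6 were expressed and tested, and in the mean of both clones 4 were called lower (CD3D, CD3E, CD3G and GZMA), where 4.53% of all genes were. NKG7 (-0.88) was short of the fold minimum, and CD7 had a log2 fold change of -0.02 (adjusted p = 0.778 with edgeR). The summed level of the 8 was 248 to 250 CPM in clone 1, 293 to 310 in clone 2 and 513 to 551 in WT. CD2 had 0 counts in clone 1, 9 in clone 2 and 23 in WT, KLRD1 had 7, 13 and 13, and the part of these genes in the fall of CST7 was not tested.

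RETN (ENSG00000104918, chromosome 19, 7669049 to 7670455), resistin, a secreted protein of myeloid cells, was at 0, 0.0931 and 0 CPM in clone 1, at 0.0242, 0.0267 and 0.0934 CPM in clone 2, and at 0.469, 0.463 and 0.523 CPM in WT. WT libraries were close to each other and above all knockout libraries. There were 3 counts in clone 1, 6 in clone 2 and 54 in WT. The ratio of WT to clone 1 was 14.8 (95% counting interval 4.81 to 74.2) and that of WT to clone 2 was 9.78 (4.21 to 27.8). RETN had fitted log2 fold changes of -3.76 in clone 1 (adjusted p = 3.99e-05 with edgeR) and -3.21 in clone 2 (adjusted p = 5.1e-05 with edgeR). Both calls held in 14 of 14 alternatives. RETN passed the filter on low counts only through WT, with 17 to 19 counts per library there. A library held at most 3 counts in clone 1 and at most 4 in clone 2. RETN is thus a marker for which the filter favoured a difference, and its calls are a description.

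Of 14 further granule and processing genes, 6 were expressed and tested, and in the mean of both clones 0 were called higher and 1 lower with edgeR, where 2% and 4.53% of all genes were. At the adjusted p alone 1 was higher and 5 were lower, where 16.4% and 18.9% of all genes were. CHI3L1, a chitinase-like protein of neutrophil granules and macrophages, averaged 1.31 ± 0.0409 CPM in clone 1, 2.10 ± 0.325 in clone 2 and 9.23 ± 1.06 in WT, and fell by 2.47 (adjusted p = 7.42e-22 with edgeR). CTSC, the dipeptidase that activates granule serine proteases, averaged 1136 ± 19.9 CPM in clone 1, 1397 ± 27.2 in clone 2 and 1462 ± 19.8 in WT, 0.22 lower in the mean (adjusted p = 1.96e-07 with edgeR). The granule protease PRSS57 averaged 144 ± 3.44 CPM in clone 1, 178 ± 9.69 in clone 2 and 222 ± 16.6 in WT, 0.47 lower (adjusted p = 8.08e-07 with edgeR). The neutrophil protease inhibitor SERPINB1 averaged 132 ± 1.98, 128 ± 4.45 and 117 ± 4.36 CPM in the same groups, 0.16 higher (adjusted p = 3.76e-05 with edgeR).

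Among granulocyte surface genes FUT4 and CEACAM1 were expressed. FUT4, the fucosyltransferase that builds the CD15 antigen, was at 72.3, 79.3 and 74.3 CPM in clone 1, at 76.6, 75.9 and 81.5 CPM in clone 2, and at 67.2, 66.9 and 66.9 CPM in WT. All knockout libraries were above WT, by 0.17 in clone 1 (SE 0.0402, adjusted p = 0.000701 with edgeR) and 0.22 in clone 2 (SE 0.0395, adjusted p = 1.87e-05 with edgeR), far short of the fold minimum. PIWIL4 shares part of its exon bases on the same strand, so reads there could not be assigned to FUT4. CEACAM1, an adhesion molecule of granulocytes and epithelia, was at 3.07, 3.88 and 4.26 CPM in clone 1, at 2.35, 2.53 and 3.55 CPM in clone 2, and at 3.75, 3.75 and 4.50 CPM in WT. Clone 2 lay below WT and clone 1 overlapped it. CEACAM1 had a log2 fold change of -0.50 in clone 2 (SE 0.151, adjusted p = 0.00918 with edgeR) and -0.08 in clone 1 (SE 0.151, adjusted p = 0.719 with edgeR). Pairs on the opposite strand, where an antisense gene overlaps, made up 27.2% of its stranded counts.

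CXCR2 (ENSG00000180871, chromosome 2, 218125289 to 218137251), a receptor for interleukin-8, was a trace at 0.658, 0.341 and 0.460 CPM in clone 1, at 0.266, 0.347 and 0.327 CPM in clone 2, and at 0.209, 0.122 and 0.216 CPM in WT. The knockout libraries were above WT, on 44, 38 and 20 counts in clone 1, clone 2 and WT. CXCR2 passed the filter on low counts only through the clones, where it was high, so its calls are a description. CXCR2 had a log2 fold change of 1.10 in the mean of both clones (SE 0.412, adjusted p = 0.0341 with edgeR), 1.40 in clone 1 (SE 0.458, adjusted p = 0.0136 with edgeR) and 0.79 in clone 2 (SE 0.471, adjusted p = 0.224 with edgeR). The call in the mean held in 6 of 14 alternatives. The call was lost with DESeq2 (adjusted p = 0.0648), without the filter (adjusted p = 0.0623) and without KO clone 1 replicate 1 (0.97), KO clone 2 replicate 2 (1.06), KO clone 2 replicate 3 (1.08) or any WT library (0.86 to 1.22). In clone 1 it was lost without KO clone 1 replicate 1 (1.14) or WT replicate 2 (1.17). CXCR1 had 5 counts in clone 1, 0 in clone 2 and 2 in WT, the formyl peptide receptor FPR1 had 9, 12 and 11, and CEACAM6 had 1, 0 and 0.

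In the authors' deposited table, which sets both clones together against WT, 8 markers passed the same thresholds, 2 higher (FCER1G and MS4A2) and 6 lower (CD86, CLEC7A, CST7, RETN, CPA3 and HDC). CXCR2 had an adjusted p of 0.0991 with DESeq2 in the authors' deposited table. That table gives log2 fold changes for S100A12 (0.56) and CAMP (-1.73), which had 0 counts on the strand used here. Its values therefore do not rest on the same counts as those given above.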

How the data were processed

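Raw read pairs per gene were deposited by the authors as counts for each of the 9 libraries, made with STAR in 2-pass mode on GRCh38 per the series text; versions are not given in the sources used here. Each file holds a count without regard to strand and 1 for each strand, and 70.4% to 74.1% of pairs are listed as not assigned to a gene on the strand used, which stayed out of library totals. One strand held 92% to 92.3% of stranded counts, and its counts were used. The authors' deposited table gave symbols, log2 fold changes (log2) and adjusted p-values made with DESeq2; its 18 columns of values per sample were not used.

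With R 4.3.3 and edgeR 4.0.16, filterByExpr, run by group, passed 20655 genes; libraries were scaled with TMM and the genes fitted with the robust quasi-likelihood model to all 9 libraries with 1 coefficient per group. The 4 contrasts were tested with its F test and Benjamini-Hochberg adjustment over all genes. Each SE follows from the fold change and its F statistic. Positions, gene overlaps and exon lengths came from GENCODE 44, which held 60463 of the 60605 identifiers. The fit was tested on simulated data, where changes were set only in genes with more WT counts than RETN or CXCR2. The simulation does not cover calls at such low counts. Between replicates the chi-squared per degree of freedom was 2.53 to 5.15, and 49.6 to 50.5 for pairs with KO clone 1 replicate 1, so no library was a copy of another. Intervals and floors cover counting error only.

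The members and further gene lists were chosen with earlier results of these data known. Values per library are given for each member called in any contrast and for the 12 highest per kilobase of exon; of the further lists, called genes and up to 4 with the smallest adjusted p are given. DESeq2 1.42.0 was an alternative.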

Additional observations from a re-analysis of the deposited data

Results flagged for a closer look

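MS4A2 differed between the knockout clones. Its log2 fold change of clone 2 over clone 1 was 1.34 (adjusted p = 1.57e-05 with edgeR), with all 3 libraries of clone 2 above all 3 of clone 1, and it was called in 14 of 14 alternatives, at 1.12 to 1.61. Of the 50 markers it was the only one called in this contrast with the main settings. The cause was not tested.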

How the results depend on the processing

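The counts of called markers (9 in the mean of both clones, 8 in clone 1 and 8 in clone 2) stayed within 1.5 times under every alternative run. The 1 call between the clones became 2 without the filter on low counts (MS4A3 was added) and 1 to 2 when single libraries were left out. At the adjusted p alone it became 4, where 25.9% of all genes passed. With the replicate number as a block the counts were 9, 8, 8 and 1, and the replicate block changed no call. Same-numbered libraries of different groups did not deviate together (correlations of -0.059 to 0.071), so the numbers were not treated as pairs. At a minimum of 5 CPM, 6 markers counted as expressed, against 13 at 1 CPM and 15 at 0.5 CPM. Of 952 recomputed fold changes of named markers, 938 kept their call or lack of one, 13 lost a call, 1 gained one, and 0 of those called changed sign. Depth limits the 28 markers not tested, which rest on few counts; without the filter, 2 of them were called in a contrast, MS4A3 between the clones and S100A8 in clone 2 (adjusted p = 0.049 with edgeR).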

Other observations

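Some markers of low level had more read pairs on the opposite strand than on their own. For TYROBP these were 162 pairs against 15, and they averaged 0.431 CPM in clone 1, 0.357 in clone 2 and 0.694 in WT. For CD68 they were 95 against 21. Without regard to strand, 23 of the 50 markers passed the filter, against 22 on the strand used, and the same number was called in the mean of both clones (9). Among the further genes, CSF1R had 89.7% of its stranded counts on the opposite strand, so that counting without regard to strand would give it a higher level.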
